A study of Mus musculus with 4 samples.

Results

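The genes described here encode the proteins that build the cornified envelope of the skin surface. They were taken by name: every non-control probe for a gene whose name on the array starts with Sprr or Lce, together with Lor, Ivl, Flg, Flg2, Hrnr, Rptn, Crnn, Tchh and Tchhl1. This rule found 42 gene names of 31829 on the array, measured by 51 of its 39429 probes, and it uses no measured value. The question was whether transcripts of these genes differed between epithelial stem cells before and after serial culture.

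The cornified envelope replaces the plasma membrane of a keratinocyte when the cell dies at the end of epidermal differentiation. Scaffold proteins such as involucrin are laid down first, and transglutaminases then crosslink loricrin and the small proline-rich (Sprr) proteins to them. Late cornified envelope (Lce) proteins are added at the end, and filaggrin-like proteins of the fused S100 type bind keratin filaments or join the envelope. Most of the genes lie side by side in the epidermal differentiation complex. They are silent or low in basal and stem cells and are switched on as cells leave the basal layer.

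RNA came from primary skin epithelial cells of adult C3H/HeN mice, sorted for CD49f (integrin alpha 6) and CD34, a pair of surface proteins that marks bulge stem cells of hair follicles. Sorting of the freshly prepared primary cells gave the 0p group. The 15p group is the sorted product of serial culture up to the 15th passage, each culture running for 10 days on collagen type I with the secreted signal protein Wnt-3a added. Wnt-3a is entered as a treatment for 0p RNA as well as for 15p RNA, and it is not settled here if 0p cells were ever cultured with it. The sort used no envelope protein. In such bulk samples fewer cells of a type cannot be told apart from less RNA per cell. Each of 4 two-colour Agilent arrays carried 15p RNA in one dye and 0p RNA in the other. Each of the 2 biological replicates occupied a dye-swapped pair of arrays. Whether the replicates came from separate animals is not stated, so p-values measure only the spread between these samples, which may be technical.

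All 51 probes mapped to chromosome 3 of mouse build mm9, between positions 91884206 and 93275887, a stretch of 1391.681 kb. The plus strand held 28 of them and the minus strand 23. All of the probes thus fall in a single block, as the name of the complex implies. Whether a probe lies in an exon, intron or untranslated region was not analysed here.

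Many members of the complex are close copies, so the probe sequences show what was measured. Of 13 Sprr2 probes, 5 hold the letters TTTCCTGA on the sense strand, and on 4 of these the letters follow a shared tttca. In all, 9.80% of the 51 probes hold these letters against 0.236% of all 39429 probes, and none of the 51 holds them in reverse against 0.254% of all. These shares are a description and not a test, since the letters were chosen with the envelope probes in view. Stretches of 30 bases around the letters, which are in capitals, are shown because probes of different Sprr2 genes are alike here yet were detected differently. They lie within the probes at chr3:92058417-92058476, chr3:92144721-92144780, chr3:92157288-92157347, chr3:92213134-92213193 and chr3:92223245-92223304, all on the plus strand.
Sprr2a2 (probe A_55_P2048855): ctgctgtttcaTTTCCTGAaataaaaaagg
Sprr2d: tgtgttgtcagcatggtttcaTTTCCTGAa
Sprr2e: ttgtgttgtcattgttgtttcaTTTCCTGA
Sprr2i: ctgttttttcaTTTCCTGAataaagtaccg
Sprr2j-ps: cactggtgttctaTTTCCTGAataaagtac

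The Sprr2a2, Sprr2d and Sprr2j-ps probes were well above background in both RNAs on all 4 arrays, and the Sprr2e and Sprr2i probes were so on none. Well above background is the scanner software's own flag for a spot that exceeds its local background.

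The next stretches are the last 30 bases of the probes for loricrin, both Sprr1 genes and the second detected Sprr2a2 probe, with the polyadenylation signal letters AATAAA in capitals where present. These letters occurred in 12 of the 51 probes (23.5%) and in 12.6% of all probes. They are shown because loricrin is the main envelope protein and the other probes carry the mean ratio farthest from 0 (Sprr1a) or ratios that followed the dye. The probes lie at chr3:91884206-91884265, chr3:92287955-92288014 and chr3:92240731-92240790 on the minus strand and at chr3:92060587-92060646 on the plus strand.
Lor: attctagtgtctcctcagtcAATAAAtttg
Sprr1a: catattgaatggctacacttttcatggctc
Sprr1b: tatgttcctattaaatctccttacattcct
Sprr2a2 (probe A_55_P1974976): catggcctAATAAAcaaaaacgaaaaaagg

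For the Lce genes, the repeat CCNAANTG (N stands for any base) is in capitals in the whole probes of Lce1a2 and Lce1j, at chr3:92473024-92473083 and chr3:92593304-92593363 on the minus strand. It was found on the sense strand in 3 of the 51 probes (5.88%) and in 1.38% of all probes. Both probes are shown because their ratios followed the dye. The repeat too was chosen with the envelope probes in view, so its shares are no test.
Lce1a2 (probe A_55_P2016851): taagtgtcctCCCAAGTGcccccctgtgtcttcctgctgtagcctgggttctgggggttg
Lce1j: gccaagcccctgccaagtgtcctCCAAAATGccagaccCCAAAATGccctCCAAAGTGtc

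Among 1275 pairs of the 51 probes, 10 were at least 70% identical over an overlap of at least 30 bases, and 2 were at least 90% identical. The Lce3b and Lce3c probes were 90% identical over 60 bases, with 6 mismatches, all inside the stretch shown in capitals. The Lce1h probe and one Lce1i probe were 93.3% identical, and 2 of their 4 mismatches fall in the stretch shown. The Lce3b and Lce3c probes are at chr3:92737872-92737931 and chr3:92749506-92749565 on the plus strand, and the Lce1h and Lce1i probes at chr3:92567272-92567331 and chr3:92581269-92581328 on the minus strand.
Lce3b: tttGtctgatcctggaCaCCcttctctgAT
Lce3c: tttAtctgatcctggaGaGTcttctctgCC
Lce1h: aagacttcaAacaaatGgtgcaggaggagc
Lce1i (probe A_55_P2001660): aagacttcaGacaaatAgtgcaggaggagc

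The Lce3c probe was well above background in both RNAs on all 4 arrays, and the Lce3b probe on 2 arrays in each RNA. Binding of RNA from one close copy to the probe of another was not tested. By their transcript accessions, 5 probes stand for several current genes, 4 of them among those tested. All 3 Sprr2a2 probes stand for Sprr2a1 and Sprr2a2, the Lce1a2 probe A_55_P2016851 for Lce1a1 and Lce1a2, and the Lce1c probe A_55_P2135095 for Lce1c, Lce1e and Lce1f. Values of these probes are therefore those of a group of copies.

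Envelope genes were detected in the sorted cells in part. Of the 51 probes, 21 from 18 genes were kept for testing because they were well above background on all 4 arrays in 15p RNA or on all 4 in 0p RNA, which is 41.2%. Over all probes the share was 55.0%. Of the kept probes, 19 were well above background in both RNAs on every array, beside 20942 of the 21675 kept over the whole array. A further 12 probes were above background on some arrays only, and 18 were never above it in any of the 8 channels (4 arrays, 2 dyes each). Over all 39429 probes these numbers were 6633 and 11121. Of the 25 other probes in the same stretch of chromosome 3, 16 were kept, or 64.0%. These shares are given as a description, with no test.

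**Figure D1:**
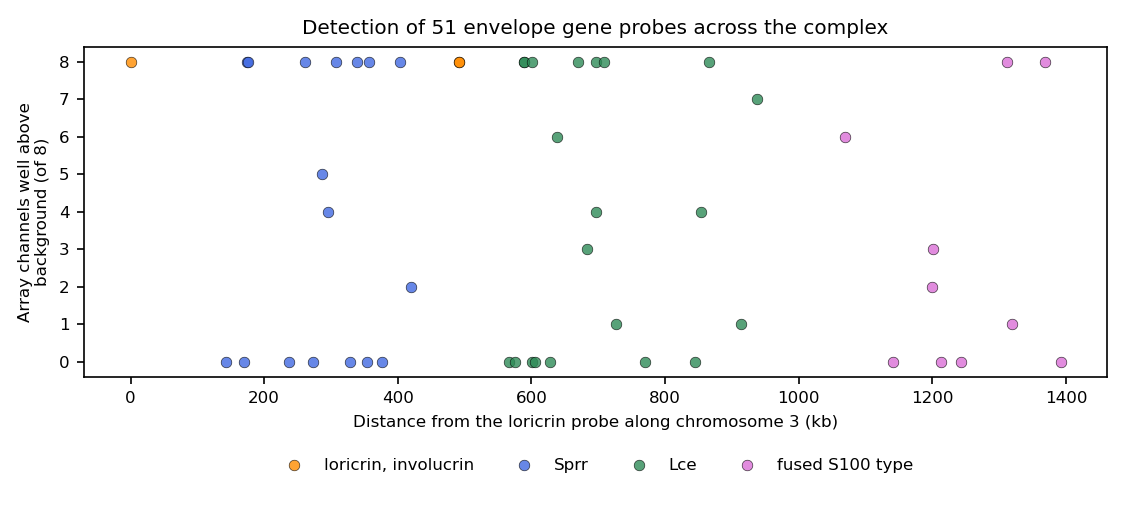
Number of array channels, out of 8, in which each of the 51 probes was well above background (vertical axis), against its distance in kb from the loricrin probe along chromosome 3 (horizontal axis); colours mark gene families. Detected and undetected probes alternate within the Sprr and Lce clusters, and all 3 probes of loricrin and involucrin reach 8.

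Loricrin and involucrin were both detected. The single Lor probe and both Ivl probes were well above background in all channels. Of 17 Sprr probes, 7 were kept: those of Sprr1a, Sprr1b, Sprr2d, Sprr2h, Sprr2j-ps and 2 of 3 for Sprr2a2. The Sprr2a, Sprr2b, Sprr2e, Sprr2i, Sprr2k and Sprr3 probes and the remaining Sprr2a2 probe were above background on no array. Sprr2f reached it on 2 arrays in 15p and 3 in 0p RNA, Sprr2g on 3 and 1, and Sprr4 on 1 and 1.

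Of 21 Lce probes, 8 were kept: Lce1a2 with 2 probes, and Lce1c, Lce1g, Lce1i, Lce1j, Lce1m and Lce3c with 1 each. The Lce1a1, Lce1b, Lce1d, Lce1e, Lce1l and Lce3a probes and the second Lce1c probe were above background nowhere. The Lce1b probe is printed on 10 spots of each array, so its low signal does not rest on a single spot. Lce1f was above background on 3 arrays in each RNA, Lce1h on 1 in 15p and 2 in 0p, and the second Lce1i probe on 2 in each. Lce1k and Lce3f were above background on 1 array in 15p RNA and on 0 in 0p RNA.

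Of 10 probes for the fused S100 type genes, 3 were kept. These were the probes of Crnn (cornulin), Tchh (trichohyalin, a structural protein of the inner root sheath and hair medulla) and 1 of 2 for Hrnr (hornerin). Filaggrin, the keratin-bundling protein of the granular layer, had 3 probes and none passed: they were above background on 1, 1 and 0 arrays in 15p RNA and on 1, 2 and 0 in 0p RNA. Flg2, Tchhl1 and the second Hrnr probe were above background nowhere, and Rptn (repetin) on 1 array in 0p RNA. Probes of the same gene disagreed on detection for Sprr2a2, Lce1c, Lce1i and Hrnr, and for these genes detection depends on which probe is read.

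Detection did not separate the RNAs. Among kept probes, 2 were well above background on every array in 1 RNA but not in the other. Lce1m was above background on 4 arrays in 15p and on 3 in 0p RNA, and Crnn on 2 in 15p and on 4 in 0p RNA. No kept envelope probe went undetected throughout either RNA. Signals of the kept probes differed widely. In Cy5 the uncorrected signal ran from 194908.6 to 206840.5 over the 4 arrays for Sprr2a2 probe A_55_P1974976. For Sprr1b it ran from 16727 to 17596, for Lor from 186 to 212 and for Lce1m from 70 to 87. Negative control spots had medians of 47.7 to 50.7 in Cy5.

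Values below are log2 ratios of 15p over 0p, corrected for background and for intensity-dependent dye bias within each array. They are given in the order replicate 1 with 15p in Cy5, replicate 1 with 15p in Cy3, replicate 2 with 15p in Cy5, replicate 2 with 15p in Cy3. A mean ± SD is over 2 replicates, each the mean of its dye-swapped pair. An offset of 50 intensity units, which steadies dim spots, pulls their ratios towards 0. Across the arrays 55.5% to 68.3% of spots were well above background in a dye and none was saturated. Ratios were widest on the replicate 2 array whose 15p RNA carried Cy5: their SD over all kept probes was 0.29, against 0.13 to 0.14 on the other 3. Among the 21 kept envelope probes the SDs were 0.23 on that array and 0.11 to 0.15 on the others. It held the ratio farthest from 0 for 10 of the 21, against 57.0% of all kept probes.

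No envelope gene passed the test in either direction. At an adjusted p under 0.05 (limma, Benjamini-Hochberg over 21675 kept probes) 0 of 21 probes were called higher and 0 lower, with a background of 0.00% in each direction, since no probe on the array passed and the lowest adjusted p was 0.787. At an unadjusted p under 0.05 there were 2 of the 21, Sprr1a and a Sprr2a2 probe, and 5.69% of all kept probes (1233). The median ratio of the 21 was 0.014, that of all kept probes 0.00077, and the 21 ranged from -0.067 to 0.20. Of the 21 means 12 were above 0 and 9 below. A fit with a dye term on single arrays called 0 of all kept probes with all 4 arrays, and its calls changed without replicate 1's array of 15p in Cy5. In that 3-array fit 3 of the 21 were called higher, Sprr1a at 0.27, the Sprr2a2 probe A_55_P2048855 at 0.21 and the Lce1c probe A_55_P2135095 at 0.21, while 1814 of all kept probes were called higher and 1986 lower. The 3-array fit differs from the test on pair means in its model as well as in the array left out. Its only array with 15p in Cy5 is the widest array, that of replicate 2. These calls cannot be told apart from the width of that array.

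**Figure D2:**
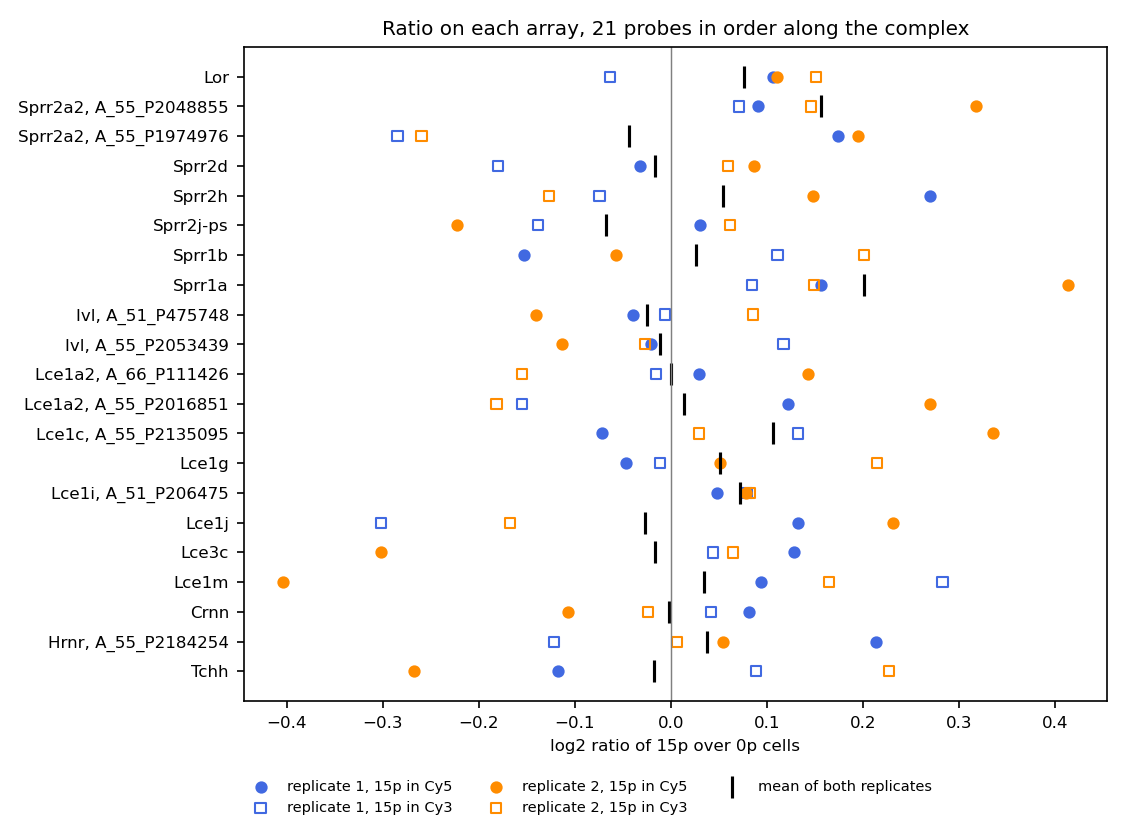
Log2 ratio of 15p over 0p on each of 4 arrays for the 21 kept envelope gene probes, in chromosomal order; filled circles are arrays with 15p in Cy5, open squares with 15p in Cy3, blue is replicate 1, orange replicate 2, and black ticks are means over both replicates. Ratios lie between -0.40 and 0.41, and for most probes they fall on both sides of 0.

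Loricrin, the most abundant envelope protein of the epidermis, had ratios of 0.11, -0.063, 0.11 and 0.15. Its mean was 0.076 ± 0.078 (SD, n = 2), with a 95% interval from -0.053 to 0.21 (limma). It was above 0 on 3 arrays and below 0 on 1, and with Agilent's processed signals the mean was 0.18. Involucrin, an early scaffold protein, had ratios of -0.039, -0.0061, -0.14 and 0.086 with probe A_51_P475748, mean -0.025 ± 0.0033. Its second probe A_55_P2053439 gave -0.020, 0.12, -0.11 and -0.027, mean -0.011 ± 0.084. Both involucrin probes had values on both sides of 0.

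Sprr1a, a crosslinked bridge protein that is also induced in injured and stressed epithelia, had the mean farthest from 0 of the kept envelope probes under this processing; with Agilent's processed signals Lce1m was farther, at 0.35 against 0.23 for Sprr1a. Its ratios were 0.16, 0.085, 0.41 and 0.15, all above 0, and the mean was 0.20 ± 0.11 (SD, n = 2). That is a fold of 1.15 with a 95% interval from 1.04 to 1.26 (limma, unadjusted p = 0.010, adjusted p = 0.787). The highest of its values came from the widest array, and without that array the ratio was 0.14. Its close relative Sprr1b had ratios of -0.15, 0.11, -0.057 and 0.20, mean 0.026 ± 0.066. Sprr1b lay below 0 where 15p RNA carried Cy5 and above 0 where it carried Cy3.

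The Sprr2 ratios differed in sign between probes, and none passed the test. Probe A_55_P2048855 of Sprr2a2 had ratios of 0.091, 0.071, 0.32 and 0.15, all above 0, with a mean of 0.16 ± 0.11 (limma, n = 2, unadjusted p = 0.029, adjusted p = 0.787). Without the widest array its ratio was 0.10. Probe A_55_P1974976, which stands for the same genes, had ratios of 0.17, -0.28, 0.20 and -0.26, mean -0.044 ± 0.016. The means of these probes have opposite signs here, but their 95% intervals overlap (0.020 to 0.29 and -0.17 to 0.079), the difference was not tested, and with median centring in place of loess the second probe was at 0.044.

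Sprr2d had ratios of -0.032, -0.18, 0.087 and 0.060, mean -0.016 ± 0.13, below 0 in replicate 1 and above 0 in replicate 2; with Agilent's processed signals it was -0.11. Sprr2h had 0.27, -0.074, 0.15 and -0.13, mean 0.054 ± 0.061, above 0 only with 15p in Cy5. Sprr2j-ps, annotated as a pseudogene, had 0.031, -0.14, -0.22 and 0.062, mean -0.067 ± 0.019, the lowest mean of the 21. Its values lay on both sides of 0 in each replicate.

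Among the late envelope genes, Lce1i probe A_51_P206475 had the narrowest set of values, 0.048, 0.079, 0.078 and 0.083, all above 0, with a mean of 0.072 ± 0.012. Lce1c had -0.072, 0.13, 0.34 and 0.030, mean 0.11 ± 0.11, and its highest value came from the widest array. Without that array the Lce1c ratio was 0.0047, and with Agilent's processed signals it was 0.22. Lce1g had -0.047, -0.012, 0.051 and 0.21, mean 0.052 ± 0.11, below 0 in replicate 1 and above 0 in replicate 2.

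Lce1a2 had ratios of 0.029, -0.016, 0.14 and -0.16 with probe A_66_P111426, mean 0.00031 ± 0.0091. Its other probe A_55_P2016851, printed above, gave 0.12, -0.16, 0.27 and -0.18, mean 0.014 ± 0.043. Lce1j gave 0.13, -0.30, 0.23 and -0.17, mean -0.026 ± 0.083. On all 3 of these probes the ratio was above 0 with 15p in Cy5 and below 0 with 15p in Cy3.

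Lce3c, from a group of genes that epidermis expresses after barrier injury, had 0.13, 0.044, -0.30 and 0.064, mean -0.016 ± 0.14. Lce1m had the widest set, 0.094, 0.28, -0.40 and 0.16, mean 0.034 ± 0.22. Both were above 0 on 3 arrays and below 0 on the widest array alone. With Agilent's processed signals the mean was 0.35 for Lce1m and 0.057 for Lce3c.

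Of the fused S100 type genes, Crnn had ratios of 0.081, 0.042, -0.11 and -0.023, mean -0.0019 ± 0.090, above 0 in replicate 1 and below 0 in replicate 2; with Agilent's processed signals it was -0.14. Hrnr probe A_55_P2184254 had 0.21, -0.12, 0.054 and 0.0065, mean 0.038 ± 0.011. Trichohyalin had -0.12, 0.089, -0.27 and 0.23, mean -0.017 ± 0.0040. Its ratios were below 0 with 15p in Cy5 and above 0 with 15p in Cy3.

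The intervals describe the precision of the test on pair means and hold for that model alone. Under this processing, the 95% interval of all 21 kept probes lay within 1.5-fold in either direction, as it did for 21596 of all 21675, and the median interval extended 0.13 on the log2 scale to each side of the mean. These intervals rest on 2 replicate values with a spread moderated over all probes. Deviations of same-numbered arrays correlated at -0.24 over all kept probes, and averaging such arrays into pairs narrows the spread between pair means. Intervals from a fit without pairs are not given here. The intervals cover no compression from the offset and do not show that levels were equal.

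**Figure D3:**
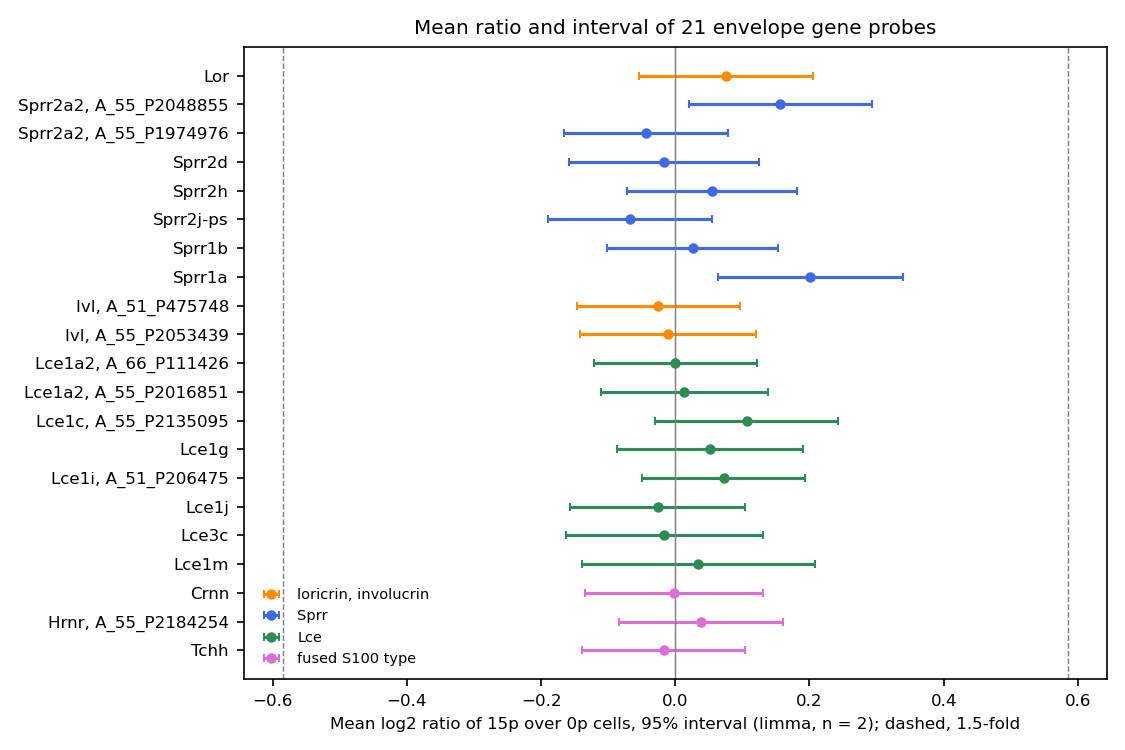
Mean log2 ratio of 15p over 0p (points) and 95% interval (bars, limma, n = 2 replicates) for the 21 kept probes, coloured by family; dashed lines mark 1.5-fold. Every interval lies inside the dashed lines, and those of Sprr1a and of Sprr2a2 probe A_55_P2048855 do not reach 0 before adjustment.

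Few of the ratios kept their sign over the arrays. They were above 0 on all 4 arrays for 3 of the 21 probes (Sprr1a, Sprr2a2 A_55_P2048855 and Lce1i A_51_P206475) and for 3.57% of all kept probes. They were below 0 on all 4 for 0 of the 21 and for 3.42% of all. The same counts were made for the dye. The Cy5 over Cy3 ratio was above 0 on all 4 arrays for 5 of the 21 (Sprr2a2 A_55_P1974976, Sprr2h, both Lce1a2 probes and Lce1j) and for 17.4% of all kept probes. It was below 0 on all 4 for Sprr1b and Tchh, 2 of the 21, and for 13.7% of all.

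The dye term was 0.23 for Sprr2a2 A_55_P1974976, 0.21 for Lce1j, 0.18 for Lce1a2 A_55_P2016851 and 0.15 for Sprr2h, and it was -0.17 for Tchh (log2 Cy5 over Cy3, a term in the fit over 4 arrays). For these 5 the unadjusted p of the dye term was under 0.05, as for 11.6% of all kept probes. At an adjusted p under 0.05 the dye term passed for 0 of the 21, with a background of 0.00% in each direction (lowest adjusted p among the 21, 0.310). Dye effects that are alike on both arrays of a pair cancel in the mean.

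**Figure D4:**
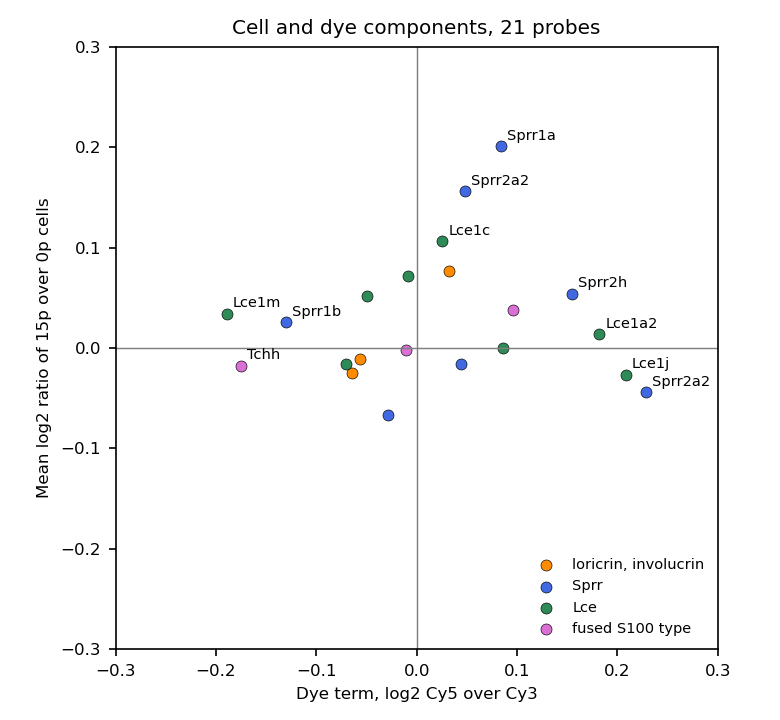
Mean log2 ratio of 15p over 0p (vertical axis) against the dye term, log2 Cy5 over Cy3 (horizontal axis), for the 21 kept probes, coloured by family; probes far from 0 are named. Lce1j and a Sprr2a2 probe lie far to the right with cell ratios near 0, and Sprr1a is highest.

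Arrays of a dye-swapped pair did not give like ratios across the envelope probes. After both were turned to 15p over 0p, Pearson's r over the 21 probes was -0.38 in replicate 1 and -0.36 in replicate 2. Between arrays of the same dye orientation it was 0.29 (15p in Cy5) and 0.64 (15p in Cy3). Over all kept probes the values were -0.52, -0.38, 0.27 and 0.37. These describe probes on shared arrays, which are not independent. The replicates sat on separate slides, which leaves slide and replicate effects that cannot be told apart.

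Of the enzymes that crosslink and process the envelope, 14 of 16 listed genes were tested, and 0 passed in either direction. Their median ratio was 0.059, beside 0.00077 over all kept probes, and 10 were above 0. The keratinocyte transglutaminase Tgm1 did not pass, with ratios of 0.15, 0.069, 0.53 and 0.046, mean 0.20 ± 0.13. Ctsd, the lysosomal protease cathepsin D, did not pass at 0.15 ± 0.15. Without the widest array Tgm1 was at 0.10 and Ctsd at -0.018. The proteases Klk5 and Klk7, which shed the dead cells, were above background nowhere. In this list and those below, a gene is given by its brightest kept probe, or by its best detected probe if none was kept.

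Envelope precursors encoded elsewhere in the genome had 12 of 16 listed genes tested, 0 passed, and their median was -0.032. The values farthest from 0 were those of the plakin proteins, periplakin (Ppl) at -0.16 ± 0.24 and desmoplakin (Dsp) at -0.14 ± 0.19. Without the widest array they were at -0.0047 and 0.0071. Of the regulators of the complex, 29 of 32 were tested, 0 passed, and the median was 0.027. The histone demethylase Kdm6b was at 0.17 ± 0.12 and the aryl hydrocarbon receptor gene Ahr at -0.12 ± 0.084, and without the widest array they were at 0.056 and -0.022.

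Other genes of the complex and its flanks, mainly S100 calcium-binding proteins, had 21 of 24 tested, 0 passed, and a median of 0.041. S100a9, a subunit of calprotectin, had ratios of 0.099, 0.33, 0.18 and 0.38, all above 0, mean 0.25 ± 0.043. It did not pass (limma, n = 2, adjusted p = 0.787). Without the widest array S100a9 was at 0.23. S100a11 had ratios of 0.26, -0.020, 0.81 and -0.26, above 0 only where 15p carried Cy5, with a mean of 0.20 ± 0.11, and did not pass. Without the widest array it was at 0.060.

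Basal markers were present in both RNAs. Krt5 was at 0.00042 ± 0.036, Itga6, which encodes CD49f, at 0.025 ± 0.041, and Krt14 at 0.19 ± 0.12, and none passed. Krt14 ratios were 0.085, 0.12, 0.73 and -0.18, the highest from the widest array, without which the ratio was 0.027. Of the basal list 9 of 9 genes were tested, with a median of -0.0032. Cd34, the other sorting marker, had 2 probes, and the better detected was above background on 0 arrays in 15p RNA and on 1 in 0p RNA. Its transcript was thus at background in nearly all channels.

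Of the suprabasal list, 5 of 8 genes were tested and 0 passed, with a median of 0.0039. Krt10, an early differentiation keratin, was at -0.017 ± 0.013, and its partner Krt1 was above background nowhere. Calml3 was at 0.11 ± 0.0039 and Krtdap at -0.047 ± 0.084 (-0.011 without the widest array). Of inner root sheath and hair shaft genes, which include the usual partners of trichohyalin, 9 of 14 were tested, 0 passed, and the median was 0.034, with Krt72 at -0.14 ± 0.12 (-0.064 without the widest array) and Msx2 at 0.12 ± 0.079. Krt71, Krt25, Krt35, Dsg1a and Dsc1 were above background nowhere, and Krt27 and Krt28 on 1 array in each RNA. Calml3, Krtdap and Krt72 were each kept through 1 RNA alone. Calml3 was above background on 4 arrays in 15p and on 3 in 0p RNA, Krtdap on 3 and 4, and Krt72 on 2 and 4.

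Marker lists of other skin cells also gave 0 genes past the test. Sebaceous markers had 6 of 8 tested (median -0.00078), fibroblast markers 2 of 7 (0.059), immune markers 3 of 7 (-0.043), endothelial markers 4 of 6 (-0.0081) and melanocyte markers 4 of 7 (-0.0092). Well above background on all 4 arrays in both RNAs were the fibroblast markers Col3a1 and Twist2, the immune markers Cd3e, Fcer1g and H2-Eb1, the endothelial markers Pecam1, Kdr, Flt1 and Eng, and the melanocyte markers Mlana, Tyr and Mitf. The sebaceous markers Scd1, Scd3, Plin2, Mc5r, Dgat2 and Fasn were too, and Sox10 was so in 0p RNA and on 2 arrays in 15p RNA. The remaining sebaceous markers, Awat1 and Elovl3, were above background nowhere. The same held for Pdgfra, Lum, Dcn, Cdh5, Tek, Lyz2 and Tyrp1. Ptprc and Col1a1 reached it on 3 arrays in either RNA, and Tyrobp, Dct and Pmel on 1. Col1a2 did so on 3 arrays in 15p and on 1 in 0p RNA, and Cd207 on 0 and 1.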

How the data were processed

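Mean spot intensity, local background intensity and processed intensity of 4 two-colour arrays were deposited as written by Agilent Feature Extraction 10.7.3.1, per the file headers and the submitters' processing notes. The deposited log10 ratio is Cy5 over Cy3, per the file headers, and other deposited columns hold flags of 0 or 1. The deposited value table repeats these log10 ratios (largest difference 0.0045; column medians 0), which settles its scale, centring and direction. Per the labels' protocols, 200 ng of total RNA was labelled and 825 ng of each labelled cRNA hybridised.

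Intensities were corrected in R 4.3.3 with limma 3.58.1 and the data.table package (version 1.17.8): normexp (offset 50), loess within each array with control spots at weight 0, and irregular spots left out (154 to 286 of 43020). Spots of a probe were averaged. Ratios were turned to 15p over 0p by the dyes in the labels, averaged within a dye-swapped pair, and tested per probe over 21675 kept probes with lmFit and eBayes against 0, two-sided, n = 2, Benjamini-Hochberg at 0.05. Kept probes were those flagged well above background in 15p RNA on 4 of 4 arrays, or likewise in 0p RNA. The replicate block used a closed form of the duplicateCorrelation estimate. The script was tested on simulated data with independent noise on each array. That test covers neither correlation within pairs nor differences as small as the envelope ratios. RefSeq symbols of GRCm38.p6 matched 44 of 51 probes; positions are mm9, as in the files. No genome or protein sequence was used here.

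Deviations of same-numbered arrays from the mean of their dye orientation correlated over probes at -0.24, so the numbers were taken to mean no more than shared RNA. The main test still averaged arrays into pairs by these numbers. The outcome with numbers crossed is given below. The number of arrays limits the precision. The members and the 12 gene lists were chosen with earlier results of these data known. Each list gene is given by its brightest kept probe, or by its best detected probe where none was kept. Krt5 and Krt10 had 2 probes each, and other probes of a list gene may disagree. Every kept envelope gene is given per array, others by detection; each list by its counts and up to 2 genes with the largest ratios, with Krt5, Krt14, Itga6, Cd34, Krt1 and Krt10 always named. For marker lists of other cells, detection was given instead, chosen after the values were seen.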

Additional observations from a re-analysis of the deposited data

Results flagged for a closer look

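The Lce1i probe A_51_P206475 had a ratio of 0.048 on the array of replicate 1 that carried 15p in Cy5, apart from the other 3 arrays, which lay between 0.078 and 0.083. The gap was 0.860 of the range, above Dixon's 95% critical value for 4 samples. It was the only 1 of 21 probes tested this way, and chance flags about 1 in 20. All 4 values were above 0, and the gap in absolute terms was small beside the spread of the other envelope probes.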

How the results depend on the processing

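There were 17 alternatives chosen at the start, of which 2 (a replicate left out) allow no test and 1 (Aquantile) leaves ratios unchanged by construction, and 1 added after seeing the data (crossed pairing). In the fits with a test, 0 envelope probes were called in either direction, except in 1 fit. Without replicate 1's array of 15p in Cy5, 3 were called higher: Sprr1a at 0.27 (limma, adjusted p = 0.00085), Sprr2a2 A_55_P2048855 at 0.21 (adjusted p = 0.010) and Lce1c A_55_P2135095 at 0.21 (adjusted p = 0.012). That fit also called 1814 of all probes higher and 1986 lower. Fits without 1 array use single arrays with a dye term, not pair means, and compare with the 4-array fit of that form, which called 0 (443 probes at an unadjusted p under 0.05). The fit without replicate 1's array of 15p in Cy5 estimates 1 common spread for all probes, from the arrays with 15p in Cy3. The array left alone in its orientation is assumed to vary like them. It is the widest array, with an SD of 0.29 over all kept probes, against 0.13 and 0.14 on the arrays with 15p in Cy3. The calls of this fit cannot be told apart from the width of that array. Adjusted p over the alternatives was between 0.00085 and 1.00 for these probes.

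With single arrays left out, members called higher ranged from 0 to 3, all probes called higher from 0 to 1814, called lower from 0 to 1986, and those at an unadjusted p under 0.05 from 133 to 6531. Without replicate 2's array of 15p in Cy5, 49 were called higher and 65 lower. The median ratio was 0.030 without replicate 1 and 0.021 without replicate 2, and 0.013 to 0.020 without single arrays. The median was 0.034 with median centring in place of loess, 0.038 with Agilent's processed signals and 0.038 with the value table. With no filter on dim probes 51 envelope probes were tested and 2592 probes reached an unadjusted p under 0.05; with at least 2 arrays required, 28 envelope probes were tested. With the replicate block, whose estimated correlation was -0.30, 1052 probes did so and 0 were called; the block leaves the ratios as they are by construction. Numbers crossed between replicates gave 661 such probes, 10 called higher and 65 lower, none an envelope gene.

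No called value turned its sign. Signs of uncalled means turned for Sprr2a2 A_55_P1974976 with median centring (0.044) and for Lce3c with processed signals (0.057) and the value table (0.057). With a replicate or an array left out, signs turned in at least 1 case for 13 probes, whose ratios then ranged from -0.11 to 0.073 (Sprr2d), -0.050 to 0.00040 (Ivl A_51_P475748), -0.070 to 0.048 (Ivl A_55_P2053439), -0.035 to 0.035 (Lce1a2 A_66_P111426), -0.021 to 0.072 (Sprr1b), -0.023 to 0.051 (Lce1a2 A_55_P2016851), -0.029 to 0.13 (Lce1g), -0.085 to 0.032 (Lce1j), -0.12 to 0.091 (Lce3c), -0.12 to 0.19 (Lce1m), -0.065 to 0.062 (Crnn), -0.0016 to 0.078 (Hrnr A_55_P2184254) and -0.055 to 0.020 (Tchh). The cause was not tested in any of these. Of the 30 envelope probes not kept, 12 were above background on some arrays, and 0 were called with no filter.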

Other observations

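Other probes in the same stretch of chromosome 3 had a median ratio of 0.0060 over the 16 kept, with a range from -0.12 to 0.24 and 0 past the test. Crct1, a cysteine-rich gene next to the Lce cluster, was at 0.062, Smcp, a sperm mitochondrial protein gene within the complex, at -0.038, and Prr9, a proline-rich gene near loricrin, at -0.050. The value farthest from 0 was 0.24 for the predicted gene Gm5278, near trichohyalin, and its ratio without the widest array was not examined. On that array the SD of the 16 was 0.29, against 0.098 to 0.13 on the others. The highest ratio of any of the 16 on a single array was 0.95. Kprp, a keratinocyte proline-rich protein gene, was above background on 2 arrays in each RNA.

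The GC content of the 51 envelope probes had a median of 40.0%, against 41.7% over all probes. It was 45.0% for the 21 kept and 38.3% for the other 30. Whether this bears on their detection was not tested.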
